A study of Mus musculus with 6 samples.

Results

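The inhibitory and Fc-like receptors of B-cells described here are 10 genes chosen by name: Cd22, Cd72, Fcgr2b, Siglecg, Pirb, Lair1, Cd5, Fcrl1, Fcrl5 and Fcrla. All 10 were found among the 46963 gene names counted, and all 10 are among the 14600 that passed the filter of at least 10 counts in at least 2 libraries. RNA was sequenced from splenic B-cells depleted of CD43-bearing cells, taken from wt mice, from mice that lack Eμ and from mice that lack the 3′RR, where Eμ and the 3′RR are the enhancers at either end of the constant gene cluster of the immunoglobulin heavy chain (IgH) locus. Each genotype gave 1 resting library and 1 library of cells cultured for 2 days with 5 μg per ml lipopolysaccharide (LPS, a bacterial membrane component that activates B-cells), so that the 6 libraries have no replicates. All mice were on a 129 background, males and females of 8 to 12 weeks, and the Eμ deletion (EμMAR) removes the enhancer together with its flanking matrix attachment regions. Each library pools 2 mice per the labels. The labels describe the resting cells as cultured without LPS for 2 days, whereas the methods describe them as taken before culture. If the methods hold, a change with LPS cannot be told apart from a change with 2 days of culture. The LPS dose is given in mg instead of μg in 1 protocol text. CD43 depletion removes CD43-bearing cells such as T-cells, plasma cells and B-1 cells, and no later sort was described.

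A B-cell is activated through its antigen receptor, and this signal is tuned by surface proteins that carry inhibitory tyrosine motifs in their tails. When these motifs are phosphorylated, by the kinase Lyn among others, they recruit the phosphatases SHP-1 (Ptpn6) or SHIP-1 (Inpp5d), which damp the signal. Cd22 and Siglecg are lectins that bind sialic acid, Cd72 is a C-type lectin that binds Sema4d, and Fcgr2b is the Fc receptor through which IgG in immune complexes inhibits B-cells. Pirb binds MHC class I and Lair1 binds collagen, and both are also made by myeloid cells. Cd5 is a scavenger-type receptor of T-cells and B-1a cells. Fcrl1 and Fcrl5 are surface relatives of the Fc receptors, while Fcrla is a relative that stays inside the cell and binds immunoglobulin, so that the 10 genes are not all inhibitory surface receptors.

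Pirb (chr7:3711409-3720391, minus strand, GRCm38) and Lair1 (chr7:4003402-4063204, minus strand) lie on the same chromosome, as do Fcgr2b (chr1:170958617-170976547, minus strand) and its relative Fcrla (chr1:170917576-170927583, minus strand), and Fcrl1 (chr3:87376387-87402934, plus strand) and Fcrl5 (chr3:87435773-87500678, plus strand). Cd22 (chr7:30865402-30880342, minus strand) and Siglecg (chr7:43408204-43418358, plus strand) are also on chromosome 7, Cd72 is at chr4:43446462-43454628 (minus strand), and Cd5 is at chr19:10717116-10739002 (minus strand). All 10 are annotated as protein-coding.

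The 250 bases before the RefSeq start (GRCm38.p6, 5′ to 3′ on the gene's strand) are shown for 4 genes that behaved differently in the libraries. Pirb and Lair1 had large LPS falls, Cd72 a smaller fall, and Fcrl5 a rise of nearly the same size in every genotype under TMM scaling. Capitals mark matches, on either strand, to 6 motifs bound by B-cell and LPS-induced factors.
Pirb, chr7:3720383-3720632: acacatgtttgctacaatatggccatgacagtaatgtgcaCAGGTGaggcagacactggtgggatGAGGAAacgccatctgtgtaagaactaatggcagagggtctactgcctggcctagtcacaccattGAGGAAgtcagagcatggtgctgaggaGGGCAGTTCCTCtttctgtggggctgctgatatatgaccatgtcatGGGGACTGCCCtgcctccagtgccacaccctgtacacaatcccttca
Lair1, chr7:4063205-4063454: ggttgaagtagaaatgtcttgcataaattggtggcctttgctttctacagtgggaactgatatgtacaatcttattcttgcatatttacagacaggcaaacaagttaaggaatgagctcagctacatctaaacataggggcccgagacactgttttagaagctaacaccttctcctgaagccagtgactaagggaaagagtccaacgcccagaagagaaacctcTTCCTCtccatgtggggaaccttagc
Cd72, chr4:43454627-43454876: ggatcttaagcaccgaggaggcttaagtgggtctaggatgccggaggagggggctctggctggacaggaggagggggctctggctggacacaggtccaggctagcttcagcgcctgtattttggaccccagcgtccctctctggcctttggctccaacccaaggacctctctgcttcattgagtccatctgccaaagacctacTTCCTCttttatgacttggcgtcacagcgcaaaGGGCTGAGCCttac
Fcrl5, chr3:87435532-87435781: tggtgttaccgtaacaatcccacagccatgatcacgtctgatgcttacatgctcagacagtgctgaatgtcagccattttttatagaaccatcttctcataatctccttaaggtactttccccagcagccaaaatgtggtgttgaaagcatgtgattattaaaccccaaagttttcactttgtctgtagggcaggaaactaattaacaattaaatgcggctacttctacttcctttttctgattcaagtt
No more than 9 bases of each of these windows are exon of the gene in the GENCODE M21 annotation. The PU.1 core GAGGAA was found in 7 of the 11 member promoters in RefSeq, counted from 250 bases before to 50 after the start with 2 windows for Siglecg, and in 28.28% of all 32851 promoters. The NF-kB pattern (GGG and CC with 5 bases between them) was found in 5 of 11 and in 50.79% of all promoters, and the E-box CAGGTG bound by E2A in 4 of 11 and in 20.21%. The EBF1 pattern (TCCC and GGGA with 2 bases between them) was found in 1 (Cd22, 0.9% of all promoters), the ETS-IRF composite (GGAA and GAAA with 2 bases between them) in 1 (Fcgr2b, 2.72%), and the octamer ATGCAAAT in 0 of 11 (1.74%). For Cd22 and Fcgr2b, the 250 bases before the RefSeq start lie wholly inside the GENCODE M21 gene, and 102 and 187 of them are exon. The PU.1 core overlaps an NF-kB match in the Pirb window, and the Fcrl5 window holds no match to any of the 6. A match is a run of letters and was not tested as a binding site.

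Between 9111974 and 21998587 counts per library fell in genes, and the members received between 5 (Cd5, LPS 3′RR-deficient) and 8186 counts (Cd22, resting 3′RR-deficient). Levels are given as CPM, a gene's count relative to the size of its library, which was scaled by edgeR's TMM method. Neither enhancer has an entry of its own in the count table, so that the deletions were not checked here. All 7 defining B-cell genes summed here (Cd79a, Cd79b, Ms4a1, Pax5, Cd74, Ptprc and Ebf1) were detected in every library, with a summed level of 4877 to 5908 CPM at rest and 2502 to 2881 CPM after LPS. Cd74 alone held 2524 to 3152 CPM at rest and 740 to 1021 CPM after LPS. In the LPS fit described below, 3 of the 7 were called lower (Cd74, Ptprc and Ebf1), 0 higher and 4 not called. RNA of other cells was present as well. The 18 myeloid markers summed to 251 to 644 CPM at rest and 26.3 to 46.3 CPM after LPS, the 15 T-cell markers to 41.6 to 69.6 and 8.47 to 29.9 CPM, and the 8 erythroid and platelet markers to 3364 to 20170 and 53.2 to 673 CPM, each sum being highest in the Eμ-deficient library of its state. The log2 ratio of 35 spike-in RNAs had an SD of 0.14 to 0.78 between the libraries of a genotype and of 1.27 between the LPS-stimulated 3′RR-deficient and wt libraries, which stand apart from each other in this respect.

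Per kb of exon in resting cells, Cd22 had the highest level and Cd5 the lowest. The median over the 3 genotypes was 77.5 CPM per kb for Cd22 (range 43.0 to 79.0), 53.4 for Fcrla (39.7 to 59.6), 46.1 for Siglecg (36.6 to 47.9), 44.0 for Cd72 (35.5 to 44.6) and 41.2 for Fcrl1 (39.0 to 42.1). Among these 5 genes, the ranges of neighbours in this order overlap, while those of Cd22 and Fcrl1 do not. Fcgr2b followed at 13.8 CPM per kb (11.1 to 15.6), then Fcrl5 at 7.94 (7.90 to 7.95), Pirb at 7.26 (6.91 to 8.24), Lair1 at 1.39 (1.22 to 4.69) and Cd5 at 0.76 (0.48 to 0.95). The ranges of Fcrl5 and Pirb overlap, whereas those of Fcrl1 and Fcgr2b, of Fcgr2b and Fcrl5, of Pirb and Lair1 and of Lair1 and Cd5 do not. After LPS, the levels per kb of the upper members drew together, with medians between 16.3 (Fcrl5) and 31.1 (Cd22) for 7 genes, while Pirb stood at 2.03, Lair1 at 0.32 and Cd5 at 0.11 CPM per kb.

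**Figure D1:**
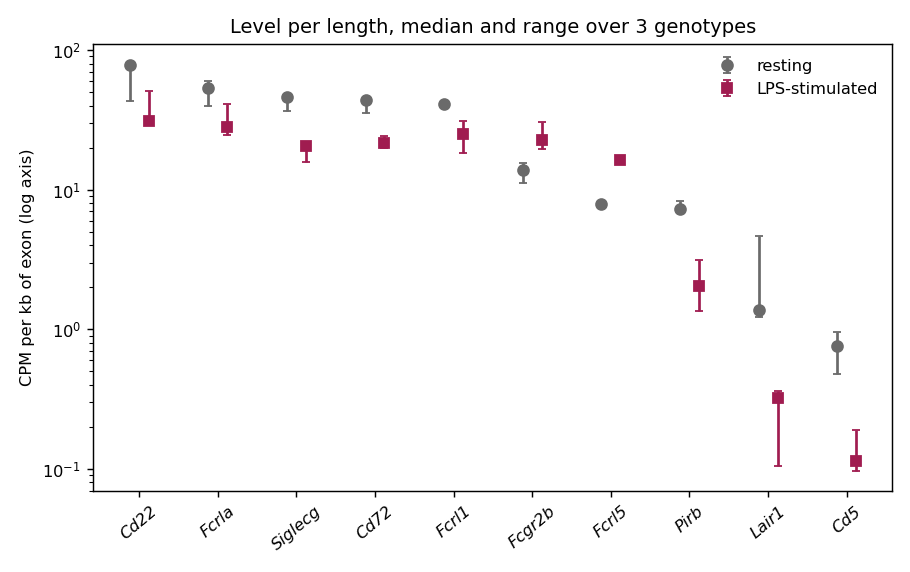
Level of each receptor gene in CPM per kb of exon (log axis) at rest (grey circles) and after LPS (red squares); symbols are the median and bars the range over the 3 genotypes, 1 library each. Cd22 is highest at rest at 77.5, and Cd5 and Lair1 are lowest in both states.

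With LPS, 8 of the 10 genes fell and 2 rose in the edgeR quasi-likelihood fit of genotype and culture state over the 6 libraries, at an adjusted p under 0.05. Cd22, Cd72, Siglecg, Pirb, Lair1, Cd5, Fcrl1 and Fcrla fell, and Fcgr2b and Fcrl5 rose. Of all 14600 genes tested, 40.8% were called in either direction, 21.1% lower and 19.7% higher. The median log2 fold change of the 10 genes was -0.86, and that of all genes tested was -0.07. Over the 7 defining B-cell genes the median was -0.71, so that a fall of this size was not particular to these receptors. In each of the 10 receptor genes the 3 genotypes moved in the same direction. The CPM of the resting and LPS libraries did not overlap in 8 genes, 6 with all LPS libraries below and 2 with all above, where 52.3% of all genes tested did not overlap, 27.3% with LPS below and 25.0% with LPS above. The fit's residual is the departure from additivity of genotype and state, not the spread between mice. edgeR moderates it toward a trend over all genes, so that an SE does not follow a gene's own variation over genotypes alone. Fcrl5, with log2 ratios of 1.03 to 1.04 over the genotypes, had an SE of 0.21. Fcrl1, with log2 ratios of -1.10 to -0.45, had an SE of 0.24. In these bulk samples, fewer cells of a type and less RNA per cell cannot be told apart.

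The calls of Pirb, Lair1 and Cd5 held under each of 13 other settings (other scalings, filters, tests and terms, and leaving out each library). The other calls did not hold under every setting. Over all members, 3 were called lower and 0 higher without the resting Eμ-deficient library, and 3 and 1 without the LPS Eμ-deficient library. In both cases the 3 lower were Pirb, Lair1 and Cd5. The counts were 4 and 1 without the LPS 3′RR-deficient library and 6 and 1 without the resting 3′RR-deficient library. They were 6 and 2 without the resting wt library, and 7 and 2 without the LPS wt library. The calls of Cd22 and Fcrla were also lost without the genotype term. Leaving out a library leaves 1 residual degree of freedom.

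**Figure D2:**
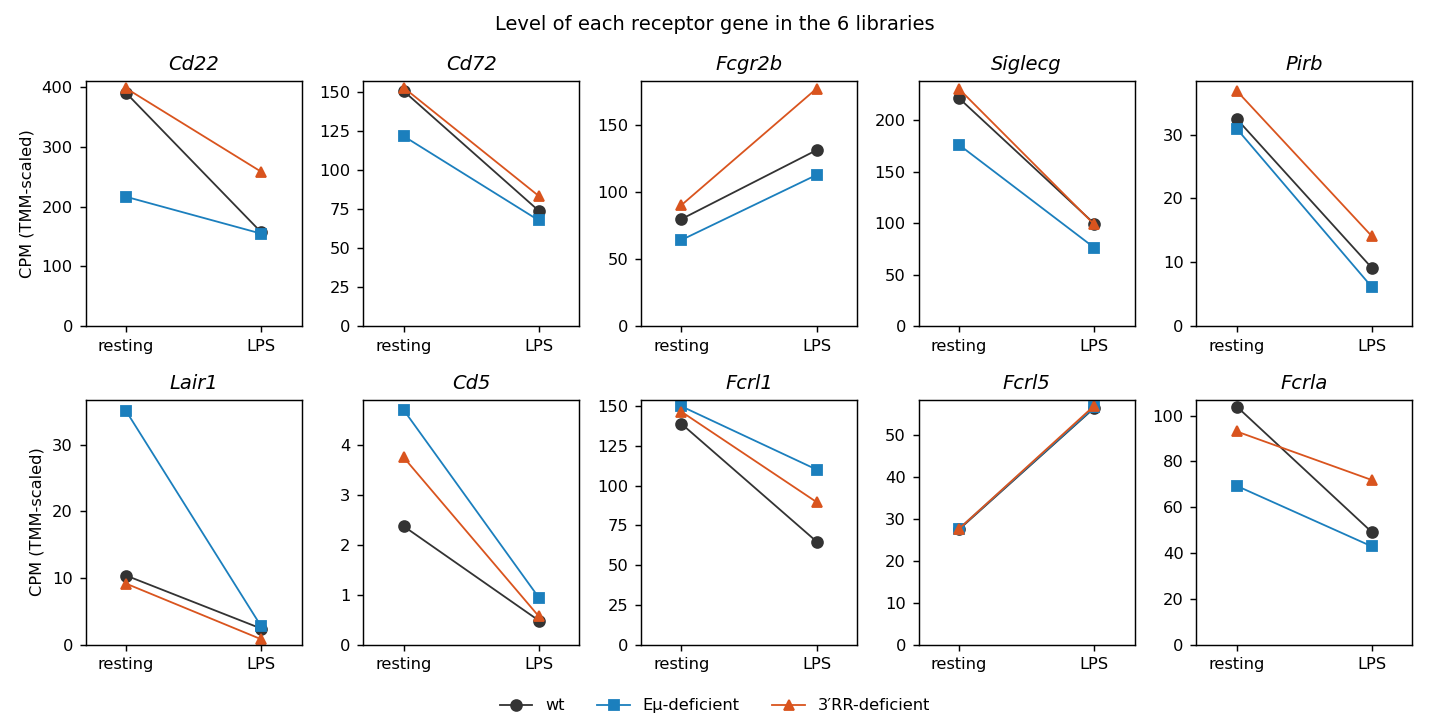
Level of each receptor gene in CPM (linear axes starting at 0) in the resting and LPS-stimulated library of wt (black circles), Eμ-deficient (blue squares) and 3′RR-deficient (orange triangles) B-cells, 1 library per point. Fcgr2b and Fcrl5 are higher after LPS in all 3 genotypes, and the 3 lines of Fcrl5 lie on each other under this TMM scaling.

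Cd22, the sialic acid-binding lectin that recruits SHP-1, stood at 391, 217 and 398 CPM in resting wt, Eμ-deficient and 3′RR-deficient B-cells, and at 157, 155 and 258 CPM after LPS. The groups overlapped, since the resting Eμ-deficient library lay below the LPS 3′RR-deficient library. The log2 ratio of LPS over resting was -1.32 in wt, -0.48 in Eμ-deficient and -0.62 in 3′RR-deficient cells, and the fitted log2 fold change was -0.81 (SE 0.27, edgeR adjusted p = 0.0425). This call was kept in 6 of 13 other settings, with adjusted p-values from 0.00886 to 0.158. Siglecg, the second lectin of this family, stood at 221, 176 and 230.4 CPM at rest and at 99.6, 76.2 and 98.8 CPM after LPS. Its 3 falls were alike, with log2 ratios of -1.15, -1.21 and -1.22 in wt, Eμ-deficient and 3′RR-deficient cells, and the groups did not overlap. The fitted change was -1.19 (SE 0.23, edgeR adjusted p = 0.00394), called in 11 of 13 other settings.

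Cd72 stood at 150.5, 122 and 153 CPM in resting wt, Eμ-deficient and 3′RR-deficient libraries and at 73.8, 67.6 and 83.2 CPM after LPS. Every LPS library lay below every resting one, and the fitted log2 fold change was -0.92 (SE 0.23, edgeR adjusted p = 0.0115), called in 10 of 13 other settings. Cd72 shares 1423 bases of exon with Tesk1 on the opposite strand. Tesk1 received 83 to 384 counts where Cd72 received 721 to 3138, and genes antisense to Cd22 and Fcgr2b received at most 6 counts. Reads were counted with strand option 1 per the methods. These counts alone cannot show whether reads of the other strand were kept apart, since such genes may simply not be expressed.

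Fcgr2b, the inhibitory receptor for IgG, rose. Its level was 79.8, 64.2 and 90.2 CPM at rest in wt, Eμ-deficient and 3′RR-deficient cells and 131, 113 and 177 CPM after LPS. All LPS libraries lay above all resting ones, with folds of 1.65, 1.76 and 1.96 in the 3 genotypes, and the fitted log2 fold change was 0.83 (SE 0.23, edgeR adjusted p = 0.0177). The call was kept in 9 of 13 other settings. Fcgr3, the activating IgG receptor of myeloid and NK cells, moved the other way in the same libraries, from 77, 132 and 83 counts at rest to 3, 13 and 7 counts after LPS (log2 fold change -3.28, SE 0.49, edgeR adjusted p = 0.00105).

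Among the Fc receptor-like genes, Fcrl5 rose while Fcrl1 and Fcrla fell. Fcrl5, a surface receptor of marginal zone and B-1 cells that carries both activating and inhibitory motifs, stood at 27.5, 27.7 and 27.6 CPM in resting wt, Eμ-deficient and 3′RR-deficient cells and at 56.5, 56.7 and 57.0 CPM after LPS. The fold was 2.06, 2.05 and 2.06, respectively, and the fitted log2 fold change was 1.04 (SE 0.21, edgeR adjusted p = 0.00490), called in 12 of 13 other settings. With total-count scaling the log2 ratio was 0.79 in wt, 1.02 in Eμ-deficient and 1.03 in 3′RR-deficient cells. Under TMM scaling, Fcrl5 had the smallest genotype difference of the 10 genes in both states, with the highest library 1.01 times the lowest.

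Fcrl1, a receptor with activating motifs in its tail, stood at 139, 149.9 and 147 CPM at rest and at 64.8, 110.1 and 89.6 CPM after LPS, in the same order of genotypes. The 3 resting libraries were within a factor of 1.08 of each other and the LPS libraries within a factor of 1.70, and the groups did not overlap. The fitted log2 fold change was -0.75 (SE 0.24, edgeR adjusted p = 0.0361). Fcrla stood at 104, 69.3 and 93.1 CPM at rest and at 49.1, 42.9 and 71.9 CPM after LPS, where the LPS 3′RR-deficient library lay above the resting Eμ-deficient one. Its fitted log2 fold change was -0.72 (SE 0.24, edgeR adjusted p = 0.0387). The calls of Fcrl1 and Fcrla were kept in 9 and 8 of 13 other settings.

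Pirb stood at 32.4, 30.9 and 36.8 CPM in resting wt, Eμ-deficient and 3′RR-deficient cells and at 9.09, 6.10 and 14.1 CPM after LPS. All LPS libraries lay well below the resting ones, and the fitted log2 fold change was -1.84 (SE 0.26, edgeR adjusted p = 0.000853). Pirb has near-identical relatives in its cluster, the activating Pira genes, and reads that map to several places were counted, so that reads may be shared among them. Of the counts of Pirb and its 4 counted relatives, Pirb held between 55.1% (95% Clopper-Pearson interval 51.5 to 58.8, resting Eμ-deficient) and 71.8% (64.5 to 78.4, LPS 3′RR-deficient). Pira2, one of these relatives, fell as well (log2 fold change -2.21, SE 0.44, edgeR adjusted p = 0.00421).

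Lair1 had the largest fitted fall of the 10 genes, although in wt the log2 ratio was -2.11 for Lair1 and -2.31 for Cd5. It stood at 10.4, 35.1 and 9.15 CPM in resting wt, Eμ-deficient and 3′RR-deficient cells and at 2.39, 2.72 and 0.79 CPM after LPS, the last from 7 counts. The LPS libraries all lay below the resting ones, and the fitted log2 fold change was -3.03 (SE 0.38, edgeR adjusted p = 0.000461). Cd5 was at a low level throughout, with 43, 62 and 77 counts at rest (2.37, 4.70 and 3.75 CPM) and 10, 10 and 5 counts after LPS (0.48, 0.94 and 0.56 CPM). Its fitted log2 fold change was -2.42 (SE 0.41, edgeR adjusted p = 0.00189).

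The 3 largest falls came with falls of the markers of myeloid cells and T-cells, which also make these receptors. All 16 myeloid markers tested fell, with a median log2 fold change of -3.69. Of the defining macrophage genes, Csf1r went from 654, 1361 and 964 counts to 6, 28 and 20, and C1qa, C1qb and C1qc received at most 12 counts in an LPS library. Of 14 T-cell markers tested, 9 fell and 0 rose, with a median of -2.25. Cd3e received 11 to 25 counts at rest and at most 4 after LPS. The 9 listed B-1 genes, of which Cd5 is itself 1, were mixed: 4 fell and 3 rose, with a median of -0.13. The 6 NK cell markers summed to 9.69 to 12.3 CPM at rest and to 0.19 to 3.85 CPM after LPS, and 4 of the 5 tested fell. The part of these cells in the falls of Pirb, Lair1 and Cd5 was not tested.

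**Figure D3:**
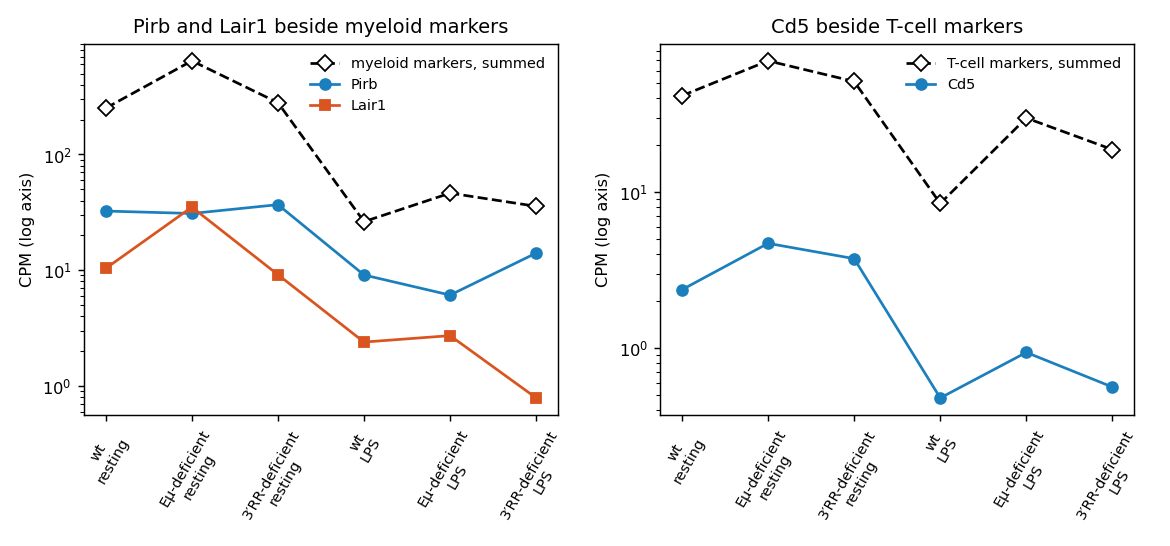
Left, Pirb, Lair1 and the summed level of 18 myeloid markers; right, Cd5 and the summed level of 15 T-cell markers, in CPM on log axes in each of the 6 libraries (lines only join the points of a series). The myeloid sum and Lair1 are highest in the resting Eμ-deficient library, at 644 and 35.1 CPM, while Pirb is at 30.9 to 36.8 CPM in all resting libraries.

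**Figure D4:**
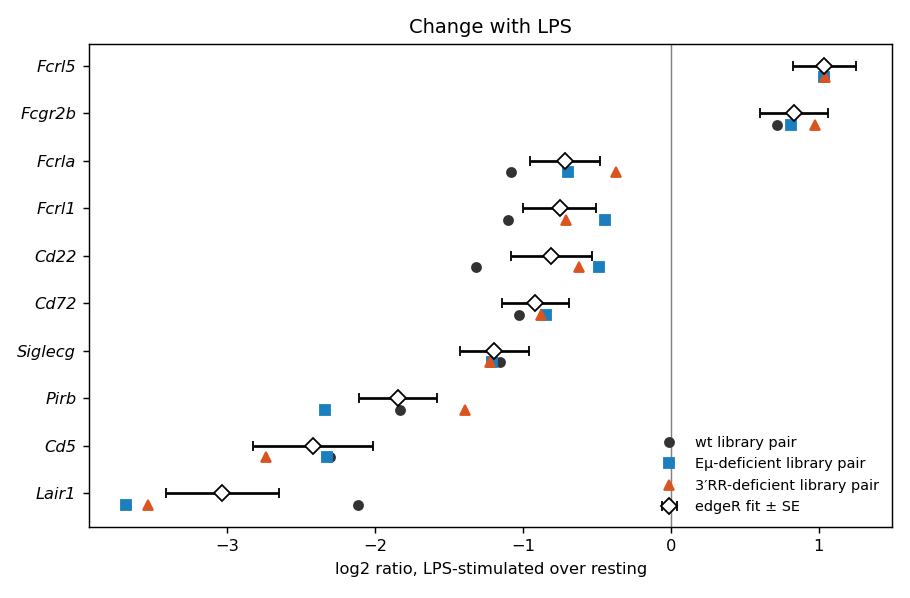
Log2 ratio of LPS-stimulated over resting libraries in each genotype (coloured symbols, 1 pair each) and the edgeR estimate with its SE (open diamonds) for the 10 receptor genes. Fcrl5 and Fcgr2b lie above 0, the other 8 below, and Lair1 is lowest at -3.03.

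Neither deletion changed any of the 10 genes past the threshold. For 3′RR-deficient against wt cells over both states, edgeR called 0 of 10, with adjusted p-values of 0.915 to 0.997 and 0 unadjusted p-values under 0.05. For Eμ-deficient against wt cells edgeR called 0 of 10, with adjusted p-values of 0.527 to 0.999 and an unadjusted p under 0.05 in 1 gene, Lair1. The DESeq2 Wald test called 0 of 10 in both comparisons. Among all genes tested, 0.678% were called for the 3′RR (0.171% higher and 0.507% lower) and 1.16% for Eμ (0.911% higher and 0.253% lower). The median log2 fold change of the 10 genes was 0.23 for the 3′RR (0.04 over all genes) and -0.24 for Eμ (-0.01 over all genes). Both comparisons use the same wt libraries. Lair1 alone was called when a library was left out, in fits that left wt with 1 library and called far more of all genes. Its log2 fold change was -1.70 in 3′RR-deficient cells without the resting wt library. It was 1.74 in Eμ-deficient cells without the LPS wt library.

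The ratio of the highest to the lowest genotype had a median of 1.36 at rest and 1.67 after LPS over the 10 genes, against 1.38 and 1.57 over the 9602 genes with a mean of at least 5 CPM. It was largest for Lair1, at 3.83 at rest and 3.46 after LPS.

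At rest and after LPS alike there is 1 library per genotype, and only the libraries can be compared, with intervals that cover counting error alone. In resting cells, the Eμ-deficient library held less Cd22 than wt (log2 ratio -0.85, 95% Clopper-Pearson interval -0.91 to -0.79), and after LPS the ratio was -0.02 (-0.11 to 0.07). Fcrla was lower as well at rest, at -0.59 (-0.70 to -0.47), and Siglecg was lower in both states, at -0.33 and -0.39. Fcgr2b was at -0.31 and -0.22 at rest and after LPS, Cd72 at -0.31 (-0.40 to -0.22) at rest, and Pirb at -0.58 (-1.01 to -0.16) after LPS. With the GC trend removed, the resting ratio was -0.62 for Cd22, -0.09 for Siglecg and 0.12 for Cd72. Lair1 was higher in the resting Eμ-deficient library at a log2 ratio of 1.76 (1.51 to 2.01), from 463 against 188 counts, and 0.18 (-0.53 to 0.87) after LPS. Cd5 was higher in the resting Eμ-deficient library at 0.99 (0.40 to 1.58), from 62 against 43 counts. Fcrl1 was higher in the LPS Eμ-deficient library at 0.76 (0.65 to 0.88).

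In the same resting Eμ-deficient library, the myeloid markers summed to 644 CPM against 251 CPM in wt, and the follicular B-cell markers to 636 against 1348 CPM. The marginal zone markers summed to 1951 against 1515 CPM, although Dtx1 and Notch2 of that list were lower, and 0 of the 10 were called for Eμ. The paper refers to an earlier report that this Eμ-deficient model lacks follicular B-cells. Of the 6 follicular genes, 1 was called lower in Eμ-deficient cells: Ighd (log2 fold change -1.89, SE 0.33, edgeR adjusted p = 0.0302), at 393, 80.2 and 198 CPM in resting wt, Eμ-deficient and 3′RR-deficient cells. Ighd is a constant gene of the IgH locus that carries the deletions, and not only a marker of follicular cells. The plasma cell markers summed to 2329 against 599 CPM, of which Jchain alone held 1737 and 113 CPM, and Jchain was the marker of this list called higher (log2 fold change 3.55, SE 0.43, edgeR adjusted p = 0.00748). Their part in the values of Cd22, Fcrla and Lair1 was not tested.

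The resting 3′RR-deficient and wt libraries were close, with log2 ratios between -0.18 (Lair1) and 0.18 (Pirb and Fcgr2b) except for Cd5 at 0.66 (0.11 to 1.24). After LPS, the 3′RR-deficient library was higher in Cd22 (0.72, 0.64 to 0.80), Pirb (0.63, 0.29 to 0.96), Fcrla (0.55, 0.40 to 0.69), Fcrl1 (0.47, 0.34 to 0.60) and Fcgr2b (0.43, 0.34 to 0.52), and lower in Lair1 (-1.60, -2.99 to -0.46). Siglecg and Fcrl5 were at -0.01 and 0.01, with intervals that hold 0. When the trend of these ratios on GC content was removed, Cd22 went to 0.38, Cd72 from 0.17 to -0.48, Siglecg to -0.38 and Fcrl1 to 0.84. Between these libraries the spike-in RNAs varied with an SD of 1.27 on the log2 scale, and the part of this variation was not tested.

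**Figure D5:**
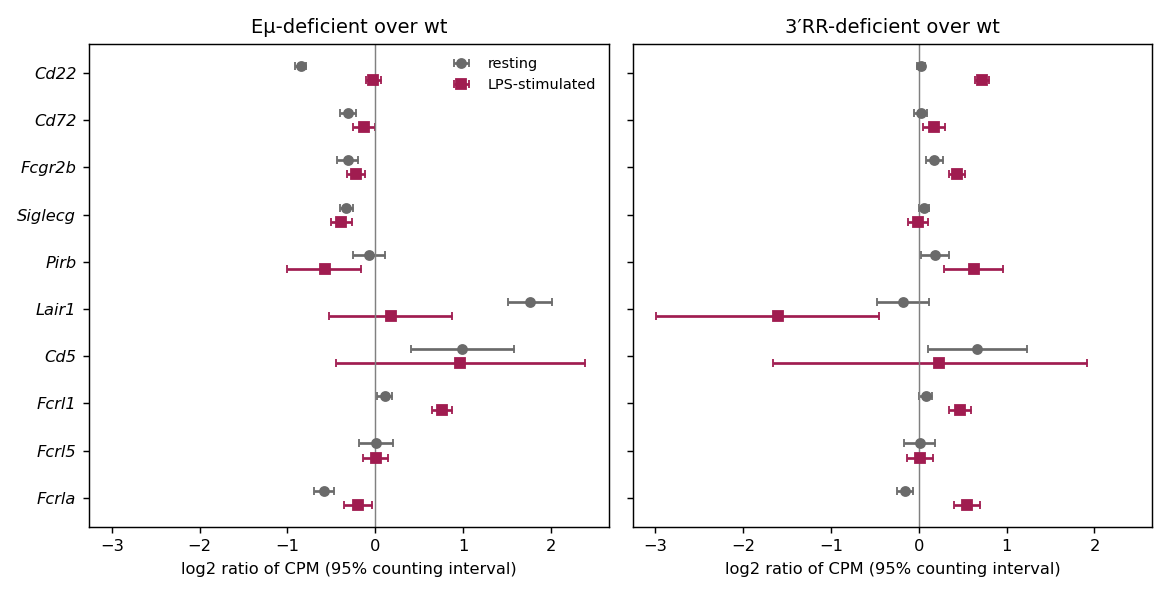
Log2 ratio of CPM of the Eμ-deficient (left) or 3′RR-deficient (right) library over the wt library, at rest (grey circles) and after LPS (red squares), with 95% intervals for counting error alone. Lair1 in the resting Eμ-deficient library (1.76) and Cd22 in the LPS 3′RR-deficient library (0.72) lie above 0, and all values of Fcrl5 lie near 0 under this TMM scaling.

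The genes that act with these receptors were described from lists, and their counts are to be read against the 21.1% of all genes tested that were called lower with LPS and the 19.7% called higher. Of the 17 tested genes of the inhibitory effectors, which carry the signal of the inhibitory tails, 8 fell with LPS and 0 rose, with a median log2 fold change of -0.68. Inpp5d, the phosphatase SHIP-1 that Fcgr2b recruits, fell by 1.72 on the log2 scale (SE 0.32, edgeR adjusted p = 0.00293), from 472, 269.5 and 305 CPM in resting wt, Eμ-deficient and 3′RR-deficient cells to 83.7, 94.9 and 136 CPM. Lyn, the kinase that phosphorylates the tails, fell by 1.18 (SE 0.24, edgeR adjusted p = 0.00468). Ptpn6, the phosphatase SHP-1, stood at 331, 202 and 290.2 CPM at rest and at 139, 149 and 257 CPM after LPS and was not called (log2 fold change -0.62, SE 0.29, edgeR adjusted p = 0.114). Dok3 and Pag1, adaptors that bring in inhibitory enzymes, had changes of -2.13 and -1.65, and Dok2, Sh2d1b1, Ptpn22 and Ptprc were the other 4 that fell. Ptprc, also known as CD45, is a phosphatase that can promote receptor signalling as well.

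Of 16 tested genes of the other inhibitory receptors, 9 fell with LPS and 2 rose. Btla and Pecam1, both made by B-cells, had log2 fold changes of -1.24 and -1.06 (SE 0.25 and 0.23), while Cd300a, Lilrb4a and Sirpa, which are made by myeloid cells, had changes of -5.46, -3.62 and -3.18. Pdcd1, the receptor PD-1, rose by 4.51 (SE 0.62, edgeR adjusted p = 0.000712), from 3, 0 and 14 counts to 67, 74 and 79 counts, and Tigit rose by 2.12 (SE 0.72, edgeR adjusted p = 0.0424), from 10, 3 and 6 counts to 13, 39 and 15, so that its wt libraries were at 0.55 and 0.62 CPM. Lilrb4a and Sirpa were higher in Eμ-deficient than wt cells (log2 fold change 2.42 and 1.57, SE 0.29 and 0.29, edgeR adjusted p = 0.00710 and 0.0376), and these were the only genes of the receptor, effector and ligand lists called for a genotype.

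Of 9 ligands and enzymes that make them, 3 fell and 1 rose, a share close to that over all genes. Cmah, which makes the form of sialic acid that mouse Cd22 prefers, fell by 1.35 (SE 0.30, edgeR adjusted p = 0.00659), and Sema4d, the ligand of Cd72, by 1.25 (SE 0.25, edgeR adjusted p = 0.00441). St6gal1, which attaches the sialic acid that Cd22 binds, had a log2 fold change of -0.03 (SE 0.24, edgeR adjusted p = 0.934). Cd24a, a sialylated surface protein bound by Siglecg, rose by 1.88 (SE 0.32, edgeR adjusted p = 0.00205), and its level was 841 to 1288 CPM after LPS against 211 to 323 CPM at rest. The 7 tested activating Fc and paired receptors all fell, among them Fcmr, the IgM receptor of B-cells (-2.28, SE 0.31, edgeR adjusted p = 0.000648), and Fcer2a, the IgE receptor CD23 (-1.19, SE 0.25, edgeR adjusted p = 0.00532). The other 5 (Fcgr1, Fcgr3, Fcgr4, Fcer1g and Pira2) are expressed by myeloid cells and had log2 fold changes of -1.66 to -3.69. They fell beside the 16 myeloid markers, of which Fcgr1 is itself 1. Of 9 activating co-receptors, 3 fell (Cr2, Cd180 and Cd84) and 0 rose.

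The 2 genes most like each member over the 6 libraries, by Euclidean distance of centred log2 CPM among 9602 genes, were Gucd1 and Fam63a for Cd22 (distance 0.18 and 0.21), Rufy1 and Vezf1 for Cd72 (0.16 and 0.18), Bms1 and Ctnnb1 for Fcgr2b (0.14 and 0.14), and Myo1e and Foxn3 for Siglecg (0.16 and 0.21). They were H2-M3 and Wdr13 for Fcrl1 (0.09 and 0.16), Eif2d and Adh5 for Fcrl5 (0.10 and 0.13), and Gps2 and Ano6 for Fcrla (0.15 and 0.16). For the 3 members with the largest falls the nearest genes were farther away: Rab10os and Iba57 for Pirb (0.37 and 0.42), Gm6377 and Nebl for Lair1 (0.57 and 0.61), and Sat1 and Smpdl3a for Cd5 (0.36 and 0.44). The distance is not scaled to the size of a change, so that genes with large changes or few counts tend to lie farther from others. Candidates had a mean of at least 5 CPM, a level that Cd5 did not reach in any library. Cd79a, a chain of the antigen receptor itself, ranked 12 among the genes nearest to Cd22 (distance 0.29) and was chosen after its values were seen. The CPM of Cd22 was between 0.62 and 0.80 of that of Cd79a in every library. These likenesses are descriptions over 6 libraries that share depth and scaling.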

How the data were processed

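The members and gene lists were chosen with earlier results of these data known. RNA of 6 libraries was analysed, 1 per genotype and culture state, each a pool of 2 mice. Per the methods, 4 mice per genotype were used in 2 pools, whereas the labels show 1 library per group. Per the methods, the authors depleted ribosomal RNA, made stranded libraries, mapped paired reads of 150 nt to mm10 with STAR 2.4.0a and Ensembl release 77, and deposited raw counts per gene name from featureCounts (Subread 1.4.6-p1, primary alignments, strand option 1, multi-mapping reads included). Reads of near-identical genes can therefore be exchanged. Of 47055 names, 92 are spike-in RNAs holding 4.75% to 7.10% of the counts. These entered neither the library sizes nor the tests. Names were matched to GENCODE M21 (44131 directly, 764 through an older name).

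Counts were scaled by TMM in edgeR 4.0.16 (R 4.3.3) and fitted with its quasi-likelihood test, in an additive model of genotype and culture state. The 14600 genes that reached 10 counts in 2 or more libraries were tested, and p-values were adjusted by Benjamini-Hochberg (threshold 0.05). Replicates are absent. Each p-value sets the effect of culture state or genotype against departure from additivity, moderated across genes, not against the spread between mice. Ratios of libraries have exact conditional binomial (Clopper-Pearson) 95% intervals (scipy 1.17.1) that cover counting error only. CPM per kb uses the merged exon length of each gene. On simulated counts for 14600 genes, 200 of those with a mean above 5 CPM were changed by 2 on the log2 scale. The LPS comparison recovered 100% of them, the 3′RR comparison 94.5% and the Eμ comparison 94%, with 1.96%, 2.07% and 3.59% false calls. Counts were drawn from an additive model with the dispersion trend, and smaller changes were not simulated. The recovery therefore does not apply to smaller changes or to genes at a lower level, such as Cd5. The rule for named genes was all members, the genes of the lists by counts with values for called ones and those a result turns on, and the 2 nearest genes per member by distance of log2 CPM with a prior count of 2 among genes with a mean of at least 5 CPM. Alternatives were total-count scaling, DESeq2 size factors, the DESeq2 1.42.0 Wald test, other filters, removal of the trend on GC content (lowess span 0.3), no genotype term, fits to 4 libraries and leaving out each library. Protein sequences were not analysed here, and 1 gene of the B-cell and co-receptor lists is not reported here.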

Additional observations from a re-analysis of the deposited data

Results flagged for a closer look

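Fcrla, the intracellular relative of the Fc receptors, was lower in the 3′RR-deficient than in the wt library at rest (log2 ratio -0.16, 95% Clopper-Pearson interval -0.25 to -0.07) and higher after LPS (0.55, 0.40 to 0.69), a difference of 0.71 on the log2 scale. It was noted because the libraries moved in opposite directions in the 2 culture states. With 1 library per genotype and state this difference was not tested, and the intervals cover counting error only.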

How the results depend on the processing

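With LPS, all 10 genes kept their direction in the 13 alternatives each, and 26 of the 130 values lost the threshold. Leaving out a library gave 3 to 7 members called lower and 0 to 2 higher, and 1875 to 3450 genes called higher and 2087 to 3376 lower. Without the genotype term, 6 members were called lower and 2 higher. The share of calls that were higher was 48.4%, and the median of all genes went from -0.07 to -0.16 with total-count scaling, 0.16 without a filter and -0.14 with the GC trend removed.

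For the 3′RR, the 25 genes called higher and 74 lower became 56 and 122 with the DESeq2 Wald test, 135 and 204 without a filter, 53 and 124 with wt and 3′RR-deficient libraries alone, and 38 to 821 and 70 to 700 when a library was left out, with 0 to 1 members called lower. For Eμ, 133 higher and 37 lower became 277 and 63, 484 and 121, 325 and 68, and 166 to 717 and 28 to 513, with 0 to 1 members called higher. Without a filter, 39.8% of the 3′RR calls were higher against 25.3%. The cause was not tested.

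Uncalled values near 0 changed sign. For the 3′RR, Cd72 was -0.19 with the GC trend removed. Siglecg was -0.053 with total-count scaling, -0.033 without a filter, -0.13 with the GC trend removed and -0.018 with wt and 3′RR-deficient libraries alone, and Fcrl5 was -0.064 with total-count scaling, -0.045 without a filter and -0.030 with those libraries alone. For Eμ, Fcrl5 was -0.073 with total-count scaling, -0.011 with DESeq2 size factors and with the DESeq2 Wald test, -0.058 without a filter and -0.0041 with the GC trend removed. Leaving out a library gave for the 3′RR -0.011 to 0.76 in Cd22, -0.011 to 0.049 in Siglecg, -0.024 to 0.020 in Fcrl5, -0.085 to 0.48 in Fcrla and for Eμ -0.69 to 0.018 in Pirb, -0.015 to 0.0075 in Fcrl5.

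Pools of mice could not be paired, because the labels give no replicate numbers and each group has 1 library. The LPS fit did pair the resting and LPS libraries of each genotype, through its genotype term. Depth limits Cd5 and Lair1, with 5 to 10 and 7 to 50 counts after LPS.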
